A study of Homo sapiens with 6 samples.

Results

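The genes described here carry TGF-β, activin and BMP signalling: 40 ligands, receptors, SMADs, latency proteins, inhibitors and target genes. They were chosen by symbol, with a rule that uses no measured value, though with earlier results of these data known. All 40 were listed among the 12308 rows of the deposited table, and all 40 were among the 11766 genes whose values were high enough to test. The table comes from RNA-seq of total RNA in triplicate cultures (3 each) of the BRCA wild-type ovarian cancer line OVCAR5 and of OVCAR5R, derived from it and resistant to prexasertib (Prex), a CHK1 inhibitor (CHK1i). OVCAR5R was obtained by stepwise exposure over 3 to 4 months to Prex of up to 3 µM, was kept at 2 µM, and was taken off Prex for 4 days or more ahead of use, whereas the parental OVCAR5 received none. Both lines grew in RPMI medium with 10% fetal bovine serum and 5 µg/ml bovine insulin. OVCAR5R is a single derivative of a single parental line, and its cultures were repeats of that derivative, so p-values below describe the spread between cultures. Whether it is a clone is not given in the sources used here.

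Ligands of the TGF-β family are secreted dimers that bring type II and type I serine/threonine kinase receptors together. TGF-β and activin receptors phosphorylate SMAD2 and SMAD3, BMP receptors phosphorylate SMAD1, SMAD5, and SMAD9, and both sets enter the nucleus with SMAD4. TGF-β is stored in a latent form bound to LTBP proteins, activins are held off by follistatin, and SMAD6, SMAD7, SKI, SKIL, and the SMURF ubiquitin ligases dampen the signal. In epithelial cells the pathway is known for slowing growth and for promoting a mesenchymal state, activins and inhibins are hormones of the ovary, and serum itself supplies TGF-β.

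Values are normalized values on a linear scale, and log2 fold changes are on the log2(value + 1) scale, which understates changes of low genes. Where 3 values of a cell line are listed, they follow the order of replicates 1, 2, and 3. In units of 1e6, estimated reads on the listed genes were 41.3, 35.8, and 41.0 in OVCAR5 and 53.6, 55.1, and 50.3 in OVCAR5R. Every OVCAR5R library was thus deeper than every OVCAR5 library. The lowest value of any of the 40 genes, that of SMAD7 in OVCAR5 replicate 3, stood for 53 estimated reads. OVCAR5 replicate 2 stood apart from every other library, with a Pearson correlation of log2 values across genes of 0.850 to 0.898 with the others, against 0.921 to 0.963 between the rest. Every OVCAR5 mean and SD over 3 cultures includes it, and whether it holds the same cells as the other OVCAR5 cultures was not tested. Its EPCAM value was 597 against 11.9 to 31.7 in the other libraries, its KRT19 value was 1341 against 3.09 to 10.7, its VIM value was 190 against 1063 to 2379, and its ZEB1 value was 6.21 against 29.3 to 61.4. Over the epithelial markers listed (6 of 7), the summed value was 17308 in that library, 2388 and 2467 in the other OVCAR5 libraries, and 3605 to 4816 in OVCAR5R. The summed value of the mesenchymal markers listed (4 of 8) was 211 in OVCAR5 replicate 2, 1122 and 1798 in replicates 3 and 1, and 1601 to 2429 in OVCAR5R. VIM made up most of this sum in every library. PDGFRB was also lowest in OVCAR5 replicate 2, at 0.145, but COL1A1 was highest there, at 15.2 against 1.29 to 9.03 elsewhere. Of the ovarian serous markers, 3 of 6 were listed: PAX8 lay between 4.38 and 11.4 in all libraries, MSLN between 0.244 and 6.11, and WT1 reached at most 0.727. CD14 (2.02 to 20.2) was the 1 listed leukocyte marker of 5, CDX2 (2.48 to 7.67) the 1 listed gastrointestinal marker of 5, and 0 of 4 endothelial markers were listed. Results are therefore given with all libraries and, where it matters, without OVCAR5 replicate 2, and the part of these markers in them was not tested. In bulk RNA, fewer cells of a type and less RNA per cell cannot be told apart.

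Across the 40 genes, 0 passed an adjusted p of 0.05 in OVCAR5R against OVCAR5 (limma, Benjamini-Hochberg over all genes tested), where 0.119% of all genes tested did. At an unadjusted p under 0.05, 5 of the 40 were found (TGFB3, INHBA, INHBB, FST, and THBS1), against a background of 10.4%. Of these, 3 were higher in OVCAR5R (background 4.14%) and 2 lower (background 6.25%). Every OVCAR5R library lay outside the range of OVCAR5 for 5 genes, INHBA and SKI above and INHBB, FST, and TGFBR2 below, or 12.5% of the list against 16.6% of all genes tested (8.4% above and 8.18% below). A log2 fold change of at least 1 in either direction was seen for 6 of 40 (15%), against 5.97% of all genes. The median log2 fold change of the 40 genes was -0.06, beside -0.01 over all genes tested, and 17 were higher and 23 lower by their mean. Without OVCAR5 replicate 2, 6 of the 40 had an unadjusted p under 0.05 (background 10.8%) and 10 did not overlap (background 27.4%). The list as a whole was thus near the background in calls and in separation of the cell lines, and the larger differences lay in the activin ligands and their inhibitor.

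**Figure D1:**
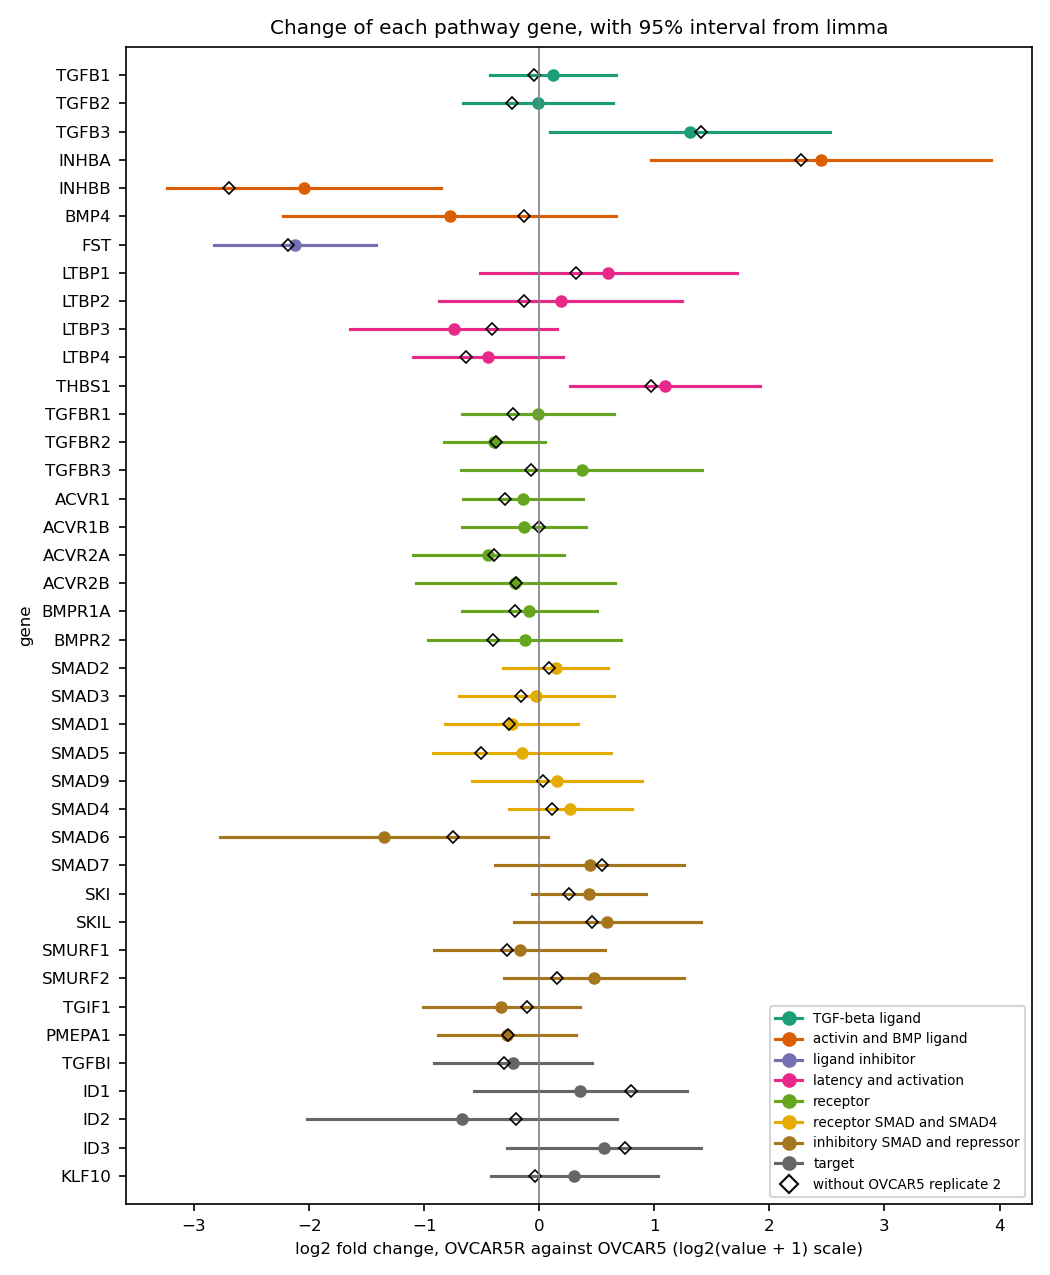
Log2 fold change (x axis, log2(value + 1) scale) of each of the 40 genes in OVCAR5R against OVCAR5, with its 95% interval from limma as a bar, coloured by role; open diamonds give the value without OVCAR5 replicate 2. INHBA lies furthest to the right at 2.45, FST and INHBB furthest to the left at -2.12 and -2.05, and most other intervals cross 0.

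INHBA encodes the βA subunit, whose dimer is activin A. It lies on chromosome 7 of GRCh38 from 41667168 to 41705834 (minus strand). Normalized values of INHBA were 3.60, 1.85, and 2.61 in OVCAR5 against 14.9, 57.0, and 7.32 in OVCAR5R. The resistant cultures all lay above the parental ones, but they themselves spread 7.78-fold from lowest to highest. The means were 2.69 ± 0.878 and 26.4 ± 26.8 (SD, n = 3 each), a ratio of 9.82. The log2 fold change was 2.45 (SE, from the limma fit, 0.64, limma adjusted p = 0.295), and without OVCAR5R replicate 2, the library with the highest value, it was 1.67 (limma adjusted p = 0.426). Without OVCAR5R replicate 3, the lowest of the resistant cultures, it was 3.07 (limma adjusted p = 0.261). Among the 35 tested genes that start within 5 Mb of INHBA, the median was 0.01.

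INHBB encodes the βB subunit, whose dimer is activin B, and was lower by its mean in OVCAR5R. It lies on chromosome 2 from 120346143 to 120351808 (plus strand). Normalized values were 37.6, 8.78, and 36.2 in OVCAR5 against 5.82, 4.96, and 3.91 in OVCAR5R. All OVCAR5R libraries were below all OVCAR5 libraries, with OVCAR5 replicate 2 much nearer to OVCAR5R than to the other parental cultures. The mean was 27.5 ± 16.3 in OVCAR5 against 4.90 ± 0.957 in OVCAR5R (SD, n = 3 each), 5.62-fold lower in OVCAR5R. The log2 fold change was -2.05 (SE 0.52, limma adjusted p = 0.288). Without OVCAR5 replicate 2, INHBB fell in OVCAR5R with a log2 fold change of -2.70 (SE 0.25, limma adjusted p = 0.0185), and it was then the 1 gene of the 40 that passed, where 0.246% of all genes did. Its 16 tested neighbours within 5 Mb had a median of 0.12.

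FST encodes follistatin, a secreted protein that binds activins and keeps them from their receptors. It lies on chromosome 5 from 53480409 to 53487134 (plus strand). Its values were 18.8, 19.4, and 25.8 in OVCAR5 against 2.85, 6.19, and 3.76 in OVCAR5R. The cell lines were separated by a wide gap, and here OVCAR5 replicate 2 lay with the other parental cultures. The mean was 21.4 ± 3.88 in OVCAR5 against 4.27 ± 1.73 in OVCAR5R (SD, n = 3 each), 5.00-fold lower in OVCAR5R. Of the 40 genes FST had the lowest p: its log2 fold change was -2.12 (SE 0.30, unadjusted p = 1.1e-04, limma adjusted p = 0.0663), which missed the threshold. The 21 tested genes within 5 Mb had a median of -0.25, with medians of 0.17, -0.28, and -0.59 in OVCAR5R replicates 1, 2, and 3, and FST was lowest in OVCAR5R replicate 1. Whether the region had a part in the lower FST was not tested.

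**Figure D2:**
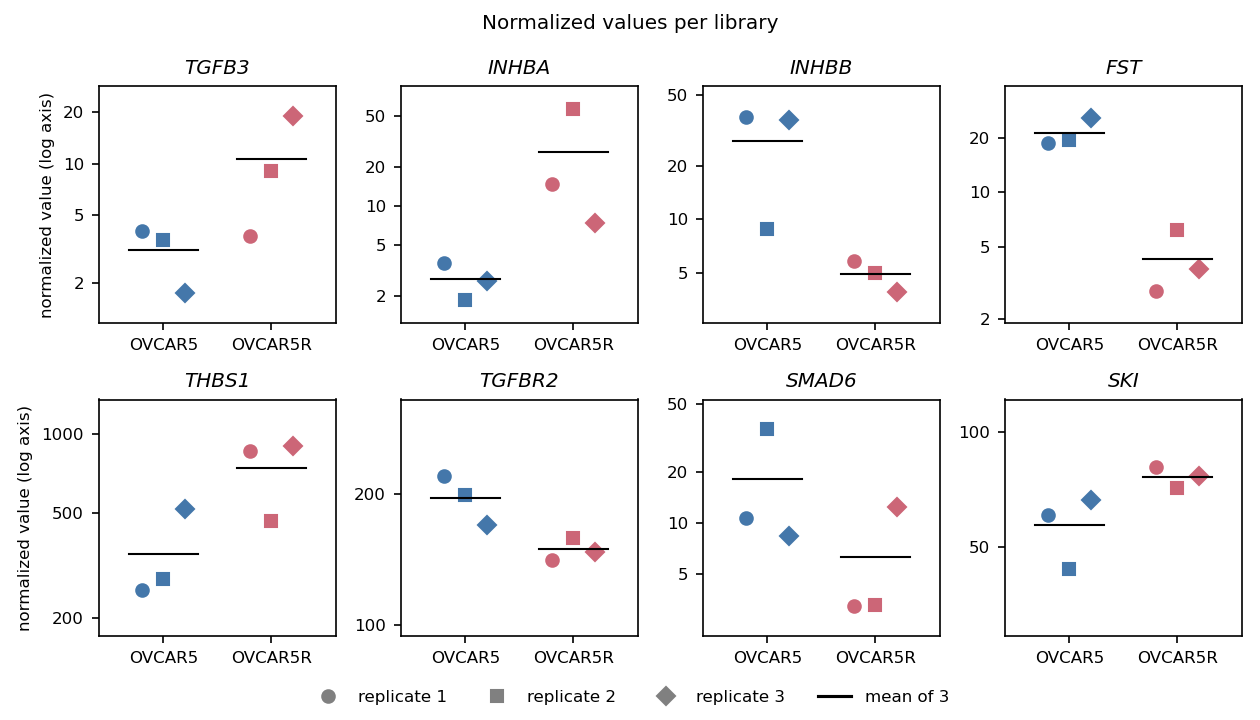
Normalized value (y axis, log scale, a separate range per panel) of the 8 genes with no overlap of the cell lines or with a log2 fold change of at least 1, in each library of OVCAR5 (blue) and OVCAR5R (red); symbols mark replicates and the line is the mean of 3. FST separates the cell lines, with the tightest replicates of the 3 activin genes in OVCAR5, while INHBB is tightest in OVCAR5R. INHBA ranges from 7.32 to 57.0 within OVCAR5R, and INHBB has OVCAR5 replicate 2 at 8.78, close to OVCAR5R.

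The sequences before the start sites of INHBA and INHBB are shown because these activin subunit genes differed in opposite directions. They are the 250 bases upstream of the RefSeq gene start on GRCh38.p14, written in the direction of transcription, at chr7:41703091-41703340 (minus strand) for INHBA and chr2:120345886-120346135 (plus strand) for INHBB. The INHBA window lies inside the GENCODE gene, which has transcripts that begin further upstream. The FST window (chr5:53480379-53480628, plus strand) is mostly 5′ UTR of a GENCODE transcript, and its letters are not printed. Capitals mark every match, on either strand, to the letters GTCTAGAC (palindromic SMAD box), CAGAC (core of the CAGA box), GGCGCC and GGAGCC (GC-rich SMAD boxes), TGACGTCA (cyclic AMP response element), TGACG (its first part, contained in it), and TGANTCA (a loose form of the AP-1 site, with any base at N).
INHBA: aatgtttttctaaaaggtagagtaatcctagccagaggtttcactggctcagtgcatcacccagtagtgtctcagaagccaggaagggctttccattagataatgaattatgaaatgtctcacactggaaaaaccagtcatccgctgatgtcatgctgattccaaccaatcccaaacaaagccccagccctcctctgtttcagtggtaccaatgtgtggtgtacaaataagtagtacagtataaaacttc
INHBB: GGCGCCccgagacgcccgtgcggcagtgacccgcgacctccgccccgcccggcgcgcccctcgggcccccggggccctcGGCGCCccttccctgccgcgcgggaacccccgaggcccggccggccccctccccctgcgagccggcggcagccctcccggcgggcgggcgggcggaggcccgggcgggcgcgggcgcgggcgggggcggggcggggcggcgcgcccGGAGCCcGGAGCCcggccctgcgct
INHBA held 0 matches in this window, and INHBB held GGCGCC at 2 places and GGAGCC at 2 places. FST held 1 GGAGCC beginning 122 bases before the start and 1 TGANTCA match, with T at N, beginning 160 bases before it. The windows differed in base composition, with a GC content of 42.8% for INHBA, 89.6% for INHBB, and 60% for FST. Of 27305 promoters of this length, 16.1% held GGCGCC, 30.03% held GGAGCC, 37.8% held CAGAC, 21.7% held TGACG, 6.60% held TGANTCA, 1.77% held TGACGTCA, and 0.176% held GTCTAGAC. Among the 38 of the 40 genes with a sequence in the table, GGAGCC was in 20, CAGAC in 14, GGCGCC in 12, TGACG in 5, TGANTCA and TGACGTCA in 2 each, and GTCTAGAC in 1. A match describes letters in the window and not a bound site.

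Scaled by exon length, the activin transcripts of OVCAR5 were mostly INHBB. The lengths are unions over all annotated transcripts, 8.30 kb for INHBA and 3.20 kb for INHBB, and the size of each ratio depends on them. Per kb of annotated exon, the INHBB value was 27.0, 12.3, and 35.9 times the INHBA value in OVCAR5 replicates 1, 2, and 3. In OVCAR5R the same ratio was 1.01, 0.225, and 1.38 in replicates 1, 2, and 3. The INHBA to INHBB ratio was thus higher in each OVCAR5R culture than in each OVCAR5 culture (mean log2 difference 5.07). Its exact two-sided permutation p of 0.1 was fixed by the separation of both genes, so nothing is concluded from it. Their sum per kb did not separate the cell lines: it was 12.2, 2.96, and 11.6 in OVCAR5 against 3.62, 8.42, and 2.10 in OVCAR5R (exact two-sided permutation p = 0.3, where 3 against 3 cannot go below 0.1). The sum divided by FST per kb was 1.92, 0.453, and 1.34 in OVCAR5 against 3.77, 4.04, and 1.66 in OVCAR5R, which overlapped at OVCAR5 replicate 1 and OVCAR5R replicate 3 (exact two-sided p = 0.2). These ratios were set up after the values of the 3 genes were known.

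BMP4, the 1 BMP ligand on the list, had values of 18.5, 47.9, and 7.30 in OVCAR5 against 5.64, 14.1, and 14.6 in OVCAR5R. The cell lines overlapped, and the highest library was OVCAR5 replicate 2. Its log2 fold change was -0.78 (SE 0.63, limma adjusted p = 0.694) and -0.13 without that library.

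Among the TGF-β ligands, TGFB1 and TGFB2 were at similar levels in both cell lines. TGFB1 had 77.2 ± 14.5 in OVCAR5 and 84.1 ± 16.8 in OVCAR5R, and TGFB2 had 75.7 ± 26.1 and 73.2 ± 14.6 (SD, n = 3 each). Their log2 fold changes of 0.12 and -0.01 had 95% intervals from -0.43 to 0.67 and from -0.66 to 0.64, so changes of under about that size in either direction cannot be told from none. TGFB3, a low gene, had 4.04, 3.56, and 1.75 in OVCAR5 against 3.75, 9.07, and 19.1 in OVCAR5R. OVCAR5R replicate 1 lay within the parental range and the other OVCAR5R cultures above it. The log2 fold change was 1.31 (SE 0.53, limma adjusted p = 0.449). The position of TGFB3 is chromosome 14, 75958099 to 75982991 (minus strand). The 63 tested genes within 5 Mb of it had medians of 0.35, 0.62, and 0.78 in OVCAR5R replicates 1, 2, and 3, the same order as TGFB3 itself. Without overlap, 25 of these 63 were higher in OVCAR5R and 1 lower, against 8.4% and 8.18% of all genes tested. LTBP2 starts within 5 Mb of TGFB3, so they share neighbours. Those of LTBP2 had a median of 0.53, and LTBP2 had 0.18. Its OVCAR5R replicates followed the order of its neighbours (0.35, 0.55, and 0.71). The neighbours of BMP4, elsewhere on this chromosome, had a median of 0.64. BMP4 itself had -0.78, or -0.13 without OVCAR5 replicate 2. What the region contributed to TGFB3 was not tested. TGFB3 also shares exon sequence with TGFB3-AS1 on the opposite strand, and reads of the 2 genes cannot be told apart if counting ignored strand.

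Some latency proteins fix TGF-β in the matrix, and thrombospondin can release it. LTBP3 and LTBP4 were lower in OVCAR5R by their means (log2 fold changes of -0.74 and -0.44) and LTBP1 and LTBP2 higher (0.60 and 0.18), with overlapping libraries and limma adjusted p-values of 0.545 to 0.921 for all 4. The higher means of LTBP1 and LTBP2 came from OVCAR5R replicate 3, at 47.2 and 39.0, against 14.1 to 14.3 and 11.8 to 15.9 in the other OVCAR5R cultures. THBS1, which encodes thrombospondin-1, had values of 256, 282, and 517 in OVCAR5 against 864, 468, and 903 in OVCAR5R. OVCAR5 replicate 3 was above OVCAR5R replicate 2, and the other libraries were separated. The means were 352 ± 144 and 745 ± 240 (SD, n = 3 each), a ratio of 2.12, with a log2 fold change of 1.10 (SE 0.36, limma adjusted p = 0.359). Exons of THBS1 overlap those of annotated genes on the other strand, FSIP1 among them, and strand use in counting is not given in the sources used here. Other members share this limit. Exons of TGFB1, ACVR2A, SMURF1, and SMURF2 overlap those of HNRNPUL1, ORC4, TRRAP, and CEP95 on the other strand. Exons of SMAD4 overlap those of AC091551.1 on the same strand.

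Of the 9 receptors, 8 were lower in OVCAR5R by their mean, with a group median log2 fold change of -0.14, and 0 passed the test (7 of 9 were lower after quantile normalization). OVCAR5 replicate 1 was the highest parental library for 8 of the 9. Without it, 4 were lower and 5 higher, with a median of 0.09. Without OVCAR5 replicate 2, 9 were lower and 0 higher, with a median of -0.23. OVCAR5 replicate 1 was also the highest parental library for 6 of the 6 SMADs that carry the signal. The same held for 3 of the 3 TGF-β ligands, but for only 1 of the 5 targets. TGFBR2, the type II receptor that binds TGF-β, had 221, 199, and 170 in OVCAR5 against 141, 159, and 148 in OVCAR5R. The cell lines did not overlap, and OVCAR5 replicate 3 at 170 was closest to OVCAR5R replicate 2 at 159. The log2 fold change was -0.39 (SE 0.19, limma adjusted p = 0.517), or a ratio of means of 0.759. TGFBR1, the type I partner of TGFBR2, had 38.5 ± 15.6 and 36.4 ± 2.07, and the co-receptor TGFBR3 had 18.6 ± 9.01 and 23.8 ± 11.6 in OVCAR5 and OVCAR5R (SD, n = 3 each). The activin receptors ACVR1B, ACVR2A, and ACVR2B had log2 fold changes of -0.14, -0.44, and -0.21, and the BMP receptors ACVR1, BMPR1A, and BMPR2 had -0.14, -0.09, and -0.13, all with overlapping libraries. Per kb, TGFBR2 was the highest receptor in both lines, at 41.8 in OVCAR5 and 31.7 in OVCAR5R, followed by ACVR1 at 9.25 and 8.32, and ACVR2B was the lowest at 0.764 and 0.614.

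The SMADs that carry the signal had log2 fold changes between -0.24 and 0.27. SMAD3, the DNA-binding effector of TGF-β and activin, had 507 ± 128 in OVCAR5 against 504 ± 143 in OVCAR5R (SD over 3 cultures), a log2 fold change of -0.02 with a 95% interval from -0.69 to 0.65. SMAD2 had 0.14, the common partner SMAD4 had 0.27, and the BMP effectors SMAD1, SMAD5, and SMAD9 had -0.24, -0.15, and 0.15, and the lowest adjusted p of these 6 genes was 0.718 (limma). Their levels were far apart. Per kb, SMAD3 was at 55.6 in OVCAR5 and 55.3 in OVCAR5R, whereas SMAD5, the next, was at 9.01 and 7.66, SMAD2 at 1.00 and 1.10, and SMAD9 at 0.384 and 0.447. Exon length is the union over all annotated transcripts, which for SMAD2 is 36.4 kb, so its level per kb is a low estimate.

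**Figure D3:**
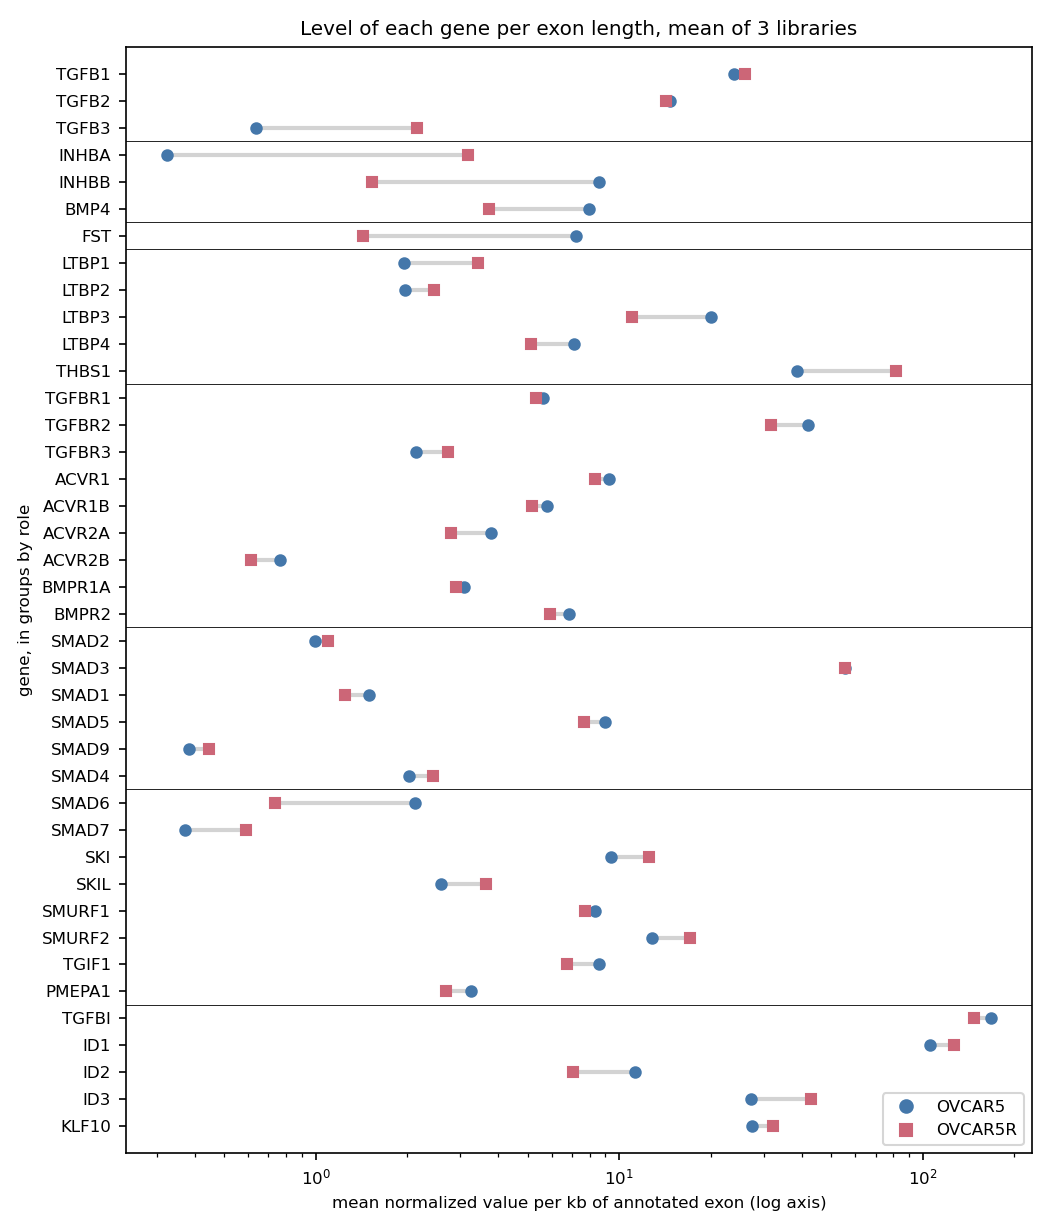
Mean normalized value per kb of annotated exon (x axis, log scale) of each of the 40 genes in OVCAR5 (circles) and OVCAR5R (squares), 3 libraries each, in groups by role. Within the SMADs, SMAD3 is highest in both lines at 55.6 and 55.3. The means of INHBA and INHBB change places, from 0.324 and 8.60 in OVCAR5 to 3.18 and 1.53 in OVCAR5R. By library and per kb, INHBA is above INHBB only in OVCAR5R replicate 2, at 6.87 against 1.55. In OVCAR5R replicate 1 they are close, at 1.80 and 1.82, and their order depends on the exon lengths used.

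Of the inhibitory SMADs and nuclear repressors, SKI and SMAD6 met the rule for individual description. SKI, a repressor that binds SMADs on DNA, had 60.8, 44.0, and 66.3 in OVCAR5 against 80.8, 71.3, and 76.6 in OVCAR5R. The cell lines did not overlap, but OVCAR5 replicate 3 at 66.3 and OVCAR5R replicate 2 at 71.3 were close, and OVCAR5 replicate 2 was the lowest. The log2 fold change was 0.43 (SE 0.22, limma adjusted p = 0.533) and 0.26 without OVCAR5 replicate 2. SMAD6, which blocks BMP receptors and is itself a BMP target, had 10.7, 35.5, and 8.41 in OVCAR5 against 3.22, 3.29, and 12.3 in OVCAR5R. OVCAR5R replicate 3 lay above OVCAR5 replicates 1 and 3. The log2 fold change of -1.35 (SE 0.62, limma adjusted p = 0.493) was -0.75 (limma adjusted p = 0.655) without OVCAR5 replicate 2. SMAD7, the inhibitor of TGF-β receptors, was among the lowest of the 40 genes, with 1.88 ± 0.484 in OVCAR5 against 2.97 ± 1.19 in OVCAR5R (SD, n = 3 each). SKIL and SMURF2 had log2 fold changes of 0.59 and 0.48, and SMURF1, TGIF1, and PMEPA1 had -0.17, -0.33, and -0.28, each with overlapping libraries.

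Target genes of the pathway on the list did not move together. TGFBI, a matrix protein named for its induction by TGF-β, was the highest of the 40 per kb, at 167 in OVCAR5 and 148 in OVCAR5R, and its log2 fold change was -0.23. KLF10, an early TGF-β response gene, had 0.30 with all libraries and -0.04 without OVCAR5 replicate 2. ID1, ID2, and ID3, helix-loop-helix proteins that are classical BMP targets, had 0.36, -0.67, and 0.56. ID1 had 75.5, 216, and 99.4 in OVCAR5 against 122, 132, and 214 in OVCAR5R. Only through OVCAR5 replicate 2 did the cell lines overlap, and without it every OVCAR5R library was higher (log2 fold change 0.79, limma adjusted p = 0.389). ID2 had 42.8 in OVCAR5 replicate 2 against 19.3 and 12.2 in replicates 1 and 3, and 20.9, 5.25, and 20.3 in OVCAR5R. ID3 was lowest in OVCAR5 replicate 1 at 38.3 and highest in OVCAR5R replicate 3 at 115, with overlap between the lines.

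OVCAR5 replicate 2 differed from the other parental cultures over much of the pathway. It was the highest of the 6 libraries for 7 of the 40 genes (BMP4, LTBP3, ACVR1B, SMAD6, TGIF1, ID1, and ID2) and the lowest for 13, together 50% of the list, against 53.6% of all genes tested. On the log2 scale it differed from the mean of OVCAR5 replicates 1 and 3 by 1.94 for BMP4, 1.80 for SMAD6, 1.42 for ID2, and 1.31 for ID1, and by -1.96 for INHBB, -1.33 for TGFBR3, -1.08 for SMAD5, and -1.03 for KLF10. Other BMP targets varied in this library. ID3, at 61.6, was above the other parental values of 38.3 and 46.2 but within the OVCAR5R range. In the wider list MSX2, at 19.2, was likewise above the parental 13.7 and 11.6. ATOH8, at 13.6, lay between the other parental values, and MSX1, at 7.56, lay below the parental 9.43 and 38.7. The median SD of the 40 genes on the log2 scale was 0.45 in OVCAR5, 0.27 between OVCAR5 replicates 1 and 3, and 0.35 in OVCAR5R, beside 0.34, 0.23, and 0.25 over all genes tested.

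**Figure D4:**
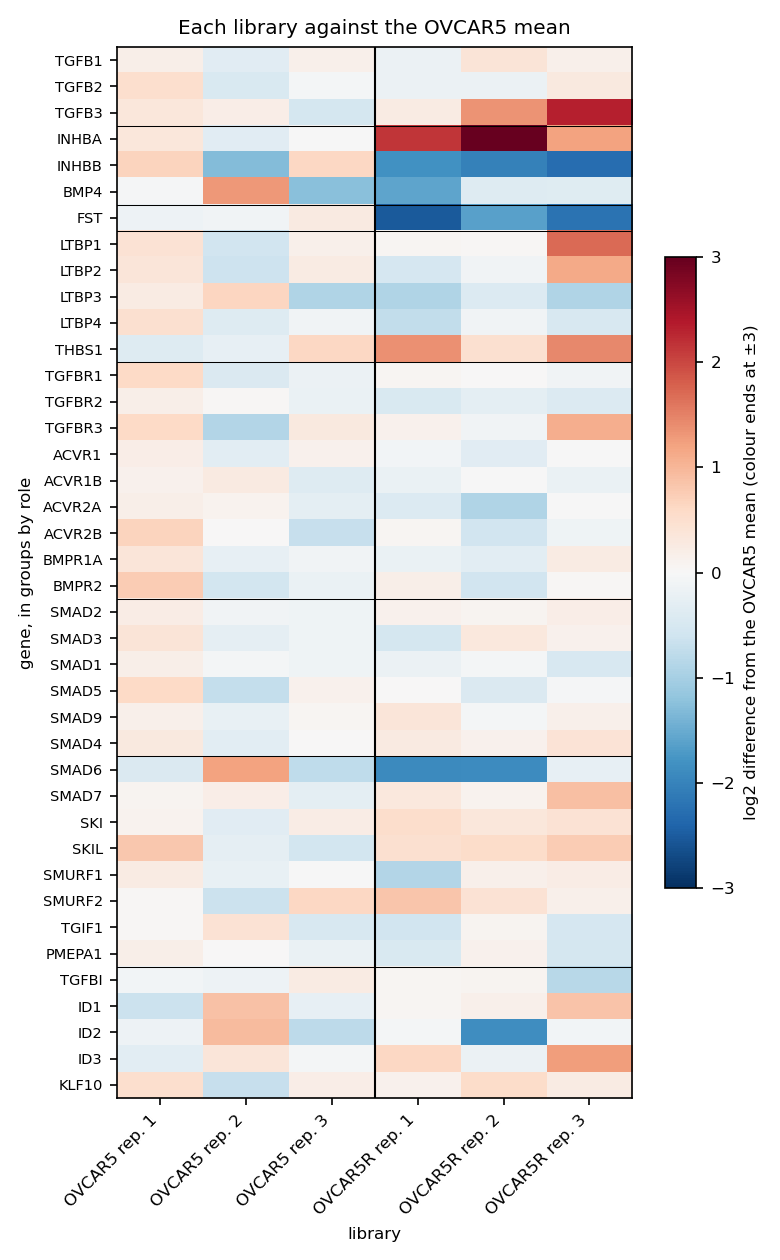
Log2 difference of each library (columns) from the OVCAR5 mean for each of the 40 genes (rows, in groups by role), red above and blue below; the colour scale ends at 3 in both directions, and INHBA in OVCAR5R replicate 2 lies beyond it. INHBA, INHBB, and FST show 1 colour over all OVCAR5R libraries, while OVCAR5 replicate 2 is red for BMP4, SMAD6, ID1, and ID2 and blue for INHBB and TGFBR3.

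A wider list of 116 symbols of the pathway was read in the same fit. Of these, 79 were listed and 71 were tested. With limma 0 of 71 passed an adjusted p of 0.05, while 9 (5 higher, 4 lower in OVCAR5R) reached an unadjusted p under 0.05, where 10.4% of all genes did (4.14% higher, 6.25% lower). Without OVCAR5 replicate 2 the count was 13 of 71, against 10.8% of all genes. The cell lines did not overlap for 12 of 71, 8 higher and 4 lower, or 16.9% against the 16.6% of all genes. By role, 6 of these were among the 22 targets tested, 3 among the 25 intracellular regulators, 1 each among the 5 ligands, 9 latency and matrix genes, and 7 extracellular inhibitors, and 0 among the 3 receptors and co-receptors. The median over the targets was 0.33, beside -0.01 over all genes tested, and 16 of 22 were higher by their mean, as were 5791 of all 11766. Of the 5 targets among the 40 genes, 3 were higher.

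Genes of the wider list with no overlap and a log2 fold change of at least 1 included ITGB8, TPM1, and FN1. ITGB8, a subunit of an integrin that activates latent TGF-β, had 13.0, 15.6, and 6.66 in OVCAR5 against 1.15, 2.71, and 1.68 in OVCAR5R, a log2 fold change of -2.13 (SE 0.38, limma adjusted p = 0.146). TPM1 and FN1 are known targets of TGF-β. TPM1, an actin-binding tropomyosin, had 123, 55.1, and 136 in OVCAR5 against 301, 240.1, and 262 in OVCAR5R (log2 fold change 1.44, SE 0.34, limma adjusted p = 0.244). FN1, fibronectin, went the other way by its mean. It had 2004, 195, and 449 in OVCAR5 against 53.6, 91.1, and 56.7 in OVCAR5R, a log2 fold change of -3.08 (SE 0.73, limma adjusted p = 0.249). Without OVCAR5 replicate 1, the highest library, it was -2.17 (limma adjusted p = 0.347), and without OVCAR5 replicate 2 it was -3.84 (limma adjusted p = 0.0736). Higher TPM1 and THBS1 values thus stood beside lower FN1 and ITGB8 in the OVCAR5R libraries by their means, and none of these passed the test.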

How the data were processed

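RNA-seq of 3 OVCAR5 and 3 OVCAR5R cultures was read from the table that the authors deposited. The deposited signal per gene is on a linear scale. The authors' supplementary methods state quartile normalization and a log transform ahead of analysis, without saying which step the deposited table holds, and its upper quartiles lie between 73.5 and 76.8. The submitters' processing notes name the build hg38. The aligner, the counter, and the gene filter are not given in the sources used here. Depth was estimated from the spacing of low values, taken as the worth of 1 read. Between 61.7% and 65.8% of values per library were whole multiples (tolerance 0.005), so the values are not plain counts and no count test was used. Of 12309 rows, 1 repeated another exactly and was dropped.

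After the log2(value + 1) transform, genes reaching 1 in 3 or more of 6 libraries entered a limma fit with trend (limma 3.58.1, R 4.3.3), two-sided, adjusted by the Benjamini-Hochberg method over all 11766 genes at 0.05. Groups came from the cell line label. Exact permutation tests used scipy version 1.17.1. Positions and exon lengths are from GENCODE release 29 on GRCh38, matched by symbol, and promoters from RefSeq on GRCh38.p14. Neighbours are tested genes whose start lies within 5 Mb. Figures used matplotlib version 3.10.9.

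Members with an adjusted p under 0.05, no overlap, or an absolute log2 fold change of at least 1 (8 of 40) are given per library, as are genes of the wider list that passed the test or had no overlap with such a change. A gene of the wider list that met this rule is not reported here. BMP4, ID1, and ID2 were added after their values were seen. The members and lists were chosen with earlier results of these data known. The alternatives were quantile normalization, no variance trend, a pseudocount of 0.1, no filter or a filter at 5, the replicate number as a block, and each library left out in turn.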

Additional observations from a re-analysis of the deposited data

How the results depend on the processing

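The 8 genes described per library and the 3 named from the wider list kept their direction in every alternative that could be fitted, and the only change of call was INHBB without OVCAR5 replicate 2. TGFB3 was not in the fit with a filter at 5. Over the alternatives the adjusted p of FST lay between 0.0636 and 0.256, that of INHBB between 0.0185 and 0.542, and that of INHBA between 0.241 and 0.523 (limma). With a library left out, the number of genes of the 40 called lay between 0 and 1, the number without overlap between 6 and 12 (fewer libraries overlap less), the median log2 fold change of the 40 between -0.14 and 0.16, the higher value without OVCAR5 replicate 1, and the number of all genes called between 0, without OVCAR5R replicate 3, and 29, without OVCAR5 replicate 2. It was 3 without OVCAR5 replicate 1, 4 without OVCAR5R replicate 1, and 2 without OVCAR5R replicate 2; the cause was not tested. Of the 40 genes, 13 turned sign in at least 1 alternative, TGFB1, TGFB2, and SMAD3 among them. Whether the replicate numbers pair the cultures is not given in the sources used here. Correlations of deviations were -0.00, 0.18, and -0.12 for numbers 1, 2, and 3, within the -0.19 to 0.25 of unequal numbers. With 3 libraries per line they cannot settle it. With the replicate number as a block, 5 genes of the table were called instead of 14, still 0 of the 40 and 0 of the wider list. In that fit 5 of the 40 had an unadjusted p under 0.05 (limma). The lowest value of the 40 genes stood for 53 estimated reads.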

Other observations

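In the wider list, GDF15, NOG, and MSX2 are also given per library, chosen after their values were seen. GDF15, a stress-induced ligand of the family, was at 18.2, 117, and 4.87 in OVCAR5 replicates 1, 2, and 3 and at 1.39, 10.5, and 1.38 in OVCAR5R replicates 1, 2, and 3, -2.55 ± 1.06 (SE) as log2 fold change, with a limma adjusted p = 0.459. Without OVCAR5 replicate 2 the GDF15 value was -1.40 (limma adjusted p = 0.585). NOG, which encodes the BMP antagonist noggin, was at 7.60, 3.62, and 16.1 in OVCAR5 and 15.3, 22.0, and 17.0 in OVCAR5R replicates 1, 2, and 3 (log2 fold change 1.10, limma adjusted p = 0.451, and 0.64 without OVCAR5 replicate 2, limma adjusted p = 0.557). MSX2, a homeobox gene induced by BMP, was at 13.7, 19.2, and 11.6 in OVCAR5 and 19.4, 23.1, and 27.2 in OVCAR5R replicates 1, 2, and 3, without overlap (log2 fold change 0.63, limma adjusted p = 0.456, and 0.82 without OVCAR5 replicate 2, limma adjusted p = 0.314).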
